A study of Rattus norvegicus with 12 samples.

Results

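The comparison described here set the ventral dentate gyrus of all Flinders Sensitive Line (FSL) rats in the study, whatever their treatment, against that of the Flinders Resistant Line (FRL). Its members were the 9 FSL-line libraries, chosen by their labelled line, of 12 libraries in all, and the other 3 were FRL. Every library was labelled as male and of Sprague-Dawley strain. The FRL group (n = 3) and 1 FSL group (n = 3) drank tap water as vehicle. The other 2 FSL groups drank 0.3% w/v L-acetyl-carnitine (LAC) in tap water over 7 days, a labelled intake near 210 mg/kg daily. Their rats were labelled by response to it as non-responders (n = 3) and responders (n = 3). No FRL library came from LAC-treated rats, so the pooled comparison holds line together with LAC in 6 of its 9 FSL-line libraries. For that reason each FSL group had equal weight and is also given by itself. Each line is 1 bred population, so the comparison is between these 2 lines and not between depressed and healthy rats in general.

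FSL and FRL rats were bred apart by selection on their response to a cholinesterase inhibitor, and the FSL became a widely used rat model of depression-like behaviour. Lines kept apart in this way accumulate inherited differences, and some of these change how strongly a gene is expressed regardless of treatment. The dentate gyrus is the entry station of the hippocampal circuit, and its ventral part is tied to mood and stress responses. LAC is the acetylated form of carnitine, the carrier that takes fatty acids into mitochondria.

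The files hold read counts for 17172 genes, of which 11750 passed the expression filter and were tested. Counts in genes ranged from 5.91 to 8.14 M (mega) per library. Levels below are counts per M counts in genes (CPM), and 3 counts in a library correspond to 0.368 to 0.511 CPM, a floor that covers counting error only. Dentate granule neuron markers were present in every library, with a summed level of 517 to 922 CPM in FRL and 667 to 1000 CPM in the FSL line. Prox1, a transcription factor that defines granule neurons, ranged from 10.4 to 105 CPM in FRL and from 9.19 to 129 CPM in the FSL line. Some libraries stood apart in their tissue content. Choroid plexus markers summed to 46.3 to 95.2 CPM in FRL, but to 6980 CPM in non-responder 1, 3870 CPM in FSL vehicle 1 and 519 CPM in FSL vehicle 3. All 18 tested choroid plexus markers had a log2 fold change above 0 (median 3.25), none was called by edgeR, DESeq2 or limma-voom, 1 had an unadjusted p under 0.05, and Otx2 was listed at 0 in every library. FRL vehicle 2 and responder 1 had the lowest granule neuron sums, 517 and 667 CPM. Thalamus and hypothalamus markers summed to 589 CPM in responder 1, against 108 to 148 CPM in FRL. FSL vehicle 3 had the highest meningeal and endothelial sums, 10200 and 1650 CPM, against 393 to 1330 and 449 to 554 CPM in FRL. In bulk tissue, fewer cells of a type and less RNA per cell cannot be told apart.

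A small set of genes parted the lines. With edgeR's quasi-likelihood test and a Benjamini-Hochberg adjusted p under 0.05, 19 of 11750 genes were called, 0.162% of those tested. Of these, 11 were higher in the FSL line (0.0936%) and 8 lower (0.0681%). In all 19 the 9 FSL-line libraries did not overlap the 3 FRL libraries, as was so for 1.94% of all tested genes (1.09% higher and 0.851% lower in the FSL line). Among called genes detected in both lines, the largest ratios were those of the falls in carbonic anhydrase 3 (Car3, 25.3-fold), Fcrl2 (9.03-fold) and ribonuclease 4 (Rnase4, 6.80-fold). At an unadjusted p under 0.05 there were 782 genes, 6.66% of those tested (3.8% higher and 2.86% lower). The median log2 fold change over all tested genes was -0.000397. When the 3 libraries with high choroid plexus sums were left out, 17 genes were called, 9 of them among the 19. Without the 2 libraries lowest in granule neuron markers, 1 of which is an FRL library, 3 were called: Car3, Rnase4 and Ephx2. With the mean level of choroid plexus markers as a covariate 3 were called, Car3, Rnase4 and Ghdc, and with choroid plexus, meningeal and granule neuron means together 5 were, among them Car3, Fcrl2, Ephx2 and Anxa6. With the choroid plexus covariate the log2 fold changes of several genes that lost the call stayed about as large: -3.24 for Fcrl2 and 1.69 for Cmc1, both with an adjusted p of 0.0515, and -2.36 for Ephx2 and 0.945 for Mpeg1, both with an adjusted p of 0.0517. Others moved: Kif15 had -1.4, against -1.74 without the covariate, and Anxa6 -0.896, against -0.79.

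The calls rested on the single libraries to different degrees. Car3, Rnase4 and Ghdc stayed past the threshold in all 12 fits that left out 1 library. Fcrl2 was lost without FRL vehicle 1, and Ephx2, Cmc1 and Trim45 were lost without FRL vehicle 1 or 2. Mpeg1 and Cnot8 were lost when any 1 of the 3 FRL libraries was left out. Exosc8 was called in 8 of the 12 fits, Gstm4 in 7, and Egf and Dcps in 5. Sgms2, Mthfs, Kif15 and Anxa6 were called in 2, and Cyp2d1 and RGD1306001 in 1, the fit without FSL vehicle 3. The total fell to 3 without FRL vehicle 1 and to 4 without FRL vehicle 2. No gene of the 19 changed direction in any of these fits, which their lack of overlap between the lines fixed in advance.

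**Figure D1:**
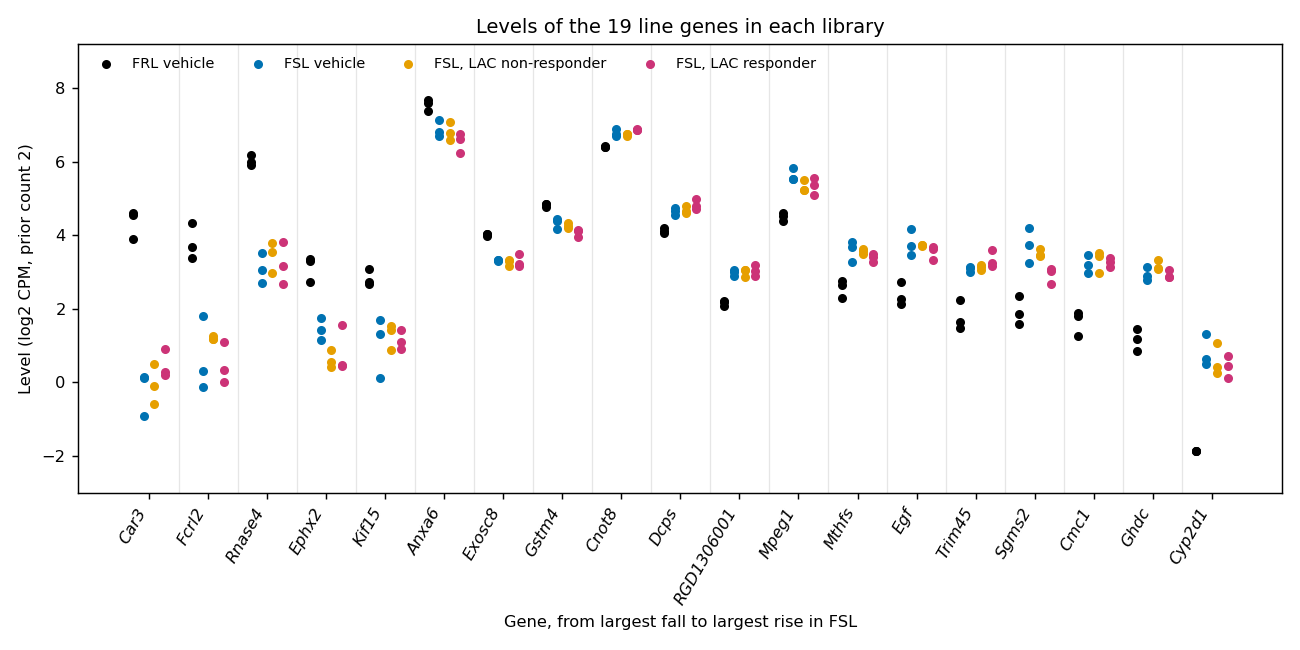
Level of each of the 19 called genes (horizontal axis) in every library, in log2 CPM with a prior count of 2 (vertical axis), with 1 point per library coloured by group. For each gene the 9 FSL-line points lie all above or all below the 3 black FRL points, and the FRL points of Cyp2d1 stand for 0 reads, placed by the prior count.

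Car3, a cytosolic carbonic anhydrase best known from muscle and fat, was at 24.1, 14.7 and 23.3 CPM in the FRL libraries. In the FSL line it lay between 0.258 and 1.59 CPM, with a median of 0.84 CPM. The lowest FRL library was thus well above the highest FSL-line library. Car3 fell by 4.66 on the log2 scale (SE 0.27, a ratio of 25.3, adjusted p = 2.34e-05). Carbonic anhydrases interconvert carbon dioxide and bicarbonate, and 11 of their genes were tested. Car3 was called, and none of the other 10 was by edgeR, DESeq2 or limma-voom. Car2, the abundant isoform of oligodendrocytes and choroid plexus, ranged from 168 to 217 CPM in FRL and from 106 to 262 CPM in the FSL line. Car14 ranged from 5.92 to 8.4 CPM in FRL and from 4.32 to 22.9 CPM in the FSL line. The lines overlapped in both of these genes.

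Rnase4, a secreted ribonuclease of the RNase A family, was at 63.2, 59.9 and 72.6 CPM in FRL. In the FSL line it ranged from 6.07 to 13.8 CPM. It fell by 2.77 on the log2 scale (SE 0.21, a ratio of 6.80, adjusted p = 2.81e-04), and its lines did not overlap. Rnase4 is transcribed from a locus it shares with angiogenin (Ang), a related ribonuclease known for promoting vessel growth. Ang was under the expression filter and has no test. Its 3 FRL libraries held 15 counts in all (3, 3 and 9), against 8 counts over the 9 FSL-line libraries, with no more than 2 in any of them. Both genes of the locus thus had fewer counts per library in the FSL line. The RefSeq starts of Ang and Rnase4 lie 54 bases apart, and the stretch that their 2 promoter windows share is shown because both genes had fewer counts in the FSL line. It is reference sequence on the build GRCr8 at chr15:26786037-26786232, plus strand, and not sequence of these rats:
Rnase4 and Ang shared promoter: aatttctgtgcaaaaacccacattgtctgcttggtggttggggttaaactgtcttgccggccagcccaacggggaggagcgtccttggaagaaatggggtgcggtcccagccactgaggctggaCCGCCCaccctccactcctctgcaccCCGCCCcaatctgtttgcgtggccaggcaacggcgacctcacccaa
Capitals mark matches to the GC box GGGCGG, searched on both strands. They begin at positions 125 and 151 from the 5′ end, both on the minus strand. The same motif occurs in 30.5% of 33469 RefSeq promoter windows of 250 bases.

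Enzymes that handle xenobiotics and oxidised lipids moved in both directions. Of 68 tested genes of this list, 1 was called higher (Cyp2d1) and 2 lower (Ephx2 and Gstm4), against 0.0936% and 0.0681% of all tested genes. The list was chosen with earlier results of these data known, so its shares are no test of the list. At an unadjusted p under 0.05 there were 12 higher and 5 lower, against 3.8% and 2.86% of all tested genes. The list's median log2 fold change was 0.0993. Ephx2, the soluble epoxide hydrolase that turns epoxy fatty acids into diols, was at 9.91, 9.6 and 6.3 CPM in FRL. Its FSL-line levels ranged from 1.06 to 3.08 CPM with a median of 1.55 CPM. Ephx2 fell by 2.31 on the log2 scale (SE 0.27, adjusted p = 0.00573), without overlap. Its microsomal relative Ephx1 was at 22.1 to 25.6 CPM in FRL and 25.2 to 91.1 CPM in the FSL line. The log2 fold change of Ephx1 was 0.76 (SE 0.23, adjusted p = 0.57), so it did not pass the test.

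Gstm4, a mu-class glutathione transferase, was at 28.3, 26.9 and 28.8 CPM in FRL and ranged from 15.4 to 21.5 CPM in the FSL line. It fell by 0.60 on the log2 scale (SE 0.08, adjusted p = 0.0148). The lines were separated by a gap, and the ratio was 1.51. The 4 other mu-class genes tested, Gstm1, Gstm2, Gstm6 and Gstm7, had log2 fold changes from 0.13 to 0.34 and none was called. The smallest adjusted p among them was 0.437, and 1 of the 4 had an unadjusted p under 0.05. Mu-class genes are similar to each other and reads that align to several places were not counted, so the value of Gstm4 is uncertain.

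Cyp2d1, a drug-metabolising cytochrome P450, had no read in any FRL library. In the FSL line every library had 6 to 16 reads of it, 0.81 to 2.24 CPM, and 87 reads in all. Against a floor of 3 counts over the 3 FRL libraries together, 0.142 CPM, Cyp2d1 was at least 9.21-fold higher in the FSL line (adjusted p = 0.0343). Its neighbour and close copy Cyp2d3 showed the same presence and absence but was under the expression filter. It had 0 reads in all 3 FRL libraries and 3 to 12 reads in each FSL-line library, at least 5.28-fold higher against the same floor. Among 5422 genes that were not tested, Cyp2d3 was the 1 gene at 0 in FRL and present in every FSL-line library, and no such gene was at 0 in the FSL line and present in every FRL library. Cyp2d4, the family member known as the main brain form, did not part the lines, with 12.4 to 21 CPM in FRL and 12.6 to 18 CPM in the FSL line. Cyp2d5 had 13 reads in the FSL line and 0 in FRL, too few for a comparison of its level. Cyp2d genes are similar to each other, so the split of reads among them is uncertain.

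The promoters of Cyp2d1 and Cyp2d3 are shown because both genes were found in 1 line and not in the other. In RefSeq on GRCr8, 226 of 246 aligned bases of their windows were identical (91.9%). The stretches lie at chr7:115793431-115793530 (Cyp2d1) and chr7:115802143-115802242 (Cyp2d3), both on the minus strand:
Cyp2d1: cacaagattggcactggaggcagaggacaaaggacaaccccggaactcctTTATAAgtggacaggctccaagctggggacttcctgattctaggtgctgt
Cyp2d3: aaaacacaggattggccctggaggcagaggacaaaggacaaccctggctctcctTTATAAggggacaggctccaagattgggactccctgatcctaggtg
Capitals mark the TATA motif TATAA, searched on both strands. In each gene it matched on the plus and the minus strand of the printed sequence in overlapping positions, from 52 and 51 in Cyp2d1 and from 56 and 55 in Cyp2d3. TATAA occurs in 8023 of the 33469 windows of 250 bases.

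Mpeg1 and Fcrl2, a pair of called genes known from immune cells, moved in opposite directions. Mpeg1, which encodes the pore-forming perforin-2 of macrophages and microglia, was at 24.1, 22.7 and 20.6 CPM in FRL and from 34.2 to 56.7 CPM in the FSL line. It rose 1.92-fold (log2 fold change 0.94, SE 0.12, adjusted p = 0.00952). Fcrl2, an Fc receptor-like gene that RefSeq also lists under the name Fcrls, known as a microglial gene in mouse, was at 20.1, 12.7 and 10.2 CPM in FRL. In the FSL line it ranged from 0.645 to 3.22 CPM with a median of 1.89 CPM. Fcrl2 fell 9.03-fold (adjusted p = 0.00479). Fcrl2 belongs to a family of related receptor genes, and whether reads were shared among them was not tested.

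Other microglial markers leaned towards the FSL line. Of 15 tested, 14 had a log2 fold change above 0 (median 0.196) and 5 had an unadjusted p under 0.05, all 5 higher. Over all tested genes, 5864 of 11750 were above 0 and 3.8% were higher at that unadjusted p. None was called by edgeR or limma-voom, and DESeq2 called Tmem119. Without Fcrl2, the list summed to 363 to 390 CPM in FRL and 403 to 521 CPM in the FSL line. None of its markers was at 0 in every library. These sums did not overlap, but the list names Fcrls, which was not matched to Fcrl2. The nearest sums were 390 CPM in FRL vehicle 1 and 403 CPM in non-responder 1 and responder 3. Fcrl2 was at 20.1, 1.98 and 1.89 CPM in these libraries, so with Fcrl2 added the lines overlap. Tmem119 had a log2 fold change of 0.88 (SE 0.21, adjusted p = 0.288 by edgeR) and the purinergic receptor P2ry12 one of 0.57 (SE 0.17). With the mean level of the microglial list as a covariate, an alternative added after seeing the data, 4 genes were called: Car3, Rnase4, Ghdc and Ephx2. Mpeg1 then had a log2 fold change of 0.745 and Fcrl2 one of -3.25, both with an adjusted p of 0.205.

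The called genes Exosc8, Cnot8 and Dcps belong to the machinery that breaks down RNA, a grouping made after their values were seen. Exosc8, a core subunit of the RNA exosome, was at 15.6, 16 and 16.2 CPM in FRL and from 8.62 to 11 CPM in the FSL line. It fell by 0.73 on the log2 scale (SE 0.10, adjusted p = 0.0148). Cnot8, a deadenylase of the CCR4-NOT complex that shortens poly(A) tails, was at 86.3, 83.9 and 84 CPM in FRL and from 103 to 119 CPM in the FSL line. It rose 1.31-fold (log2 fold change 0.39, SE 0.06, adjusted p = 0.0165), the smallest fold among the 19. Dcps, the scavenger enzyme that clears the cap left after decay, was at 17.2, 16.4 and 18.1 CPM in FRL and from 23.1 to 31.4 CPM in the FSL line. Dcps rose 1.52-fold (adjusted p = 0.0203). So 1 of these genes fell and 2 rose, each by less than 2-fold and each with narrow spread in FRL. The other 6 tested exosome subunits had log2 fold changes from -0.105 to 0.211 and the other 9 CCR4-NOT subunits from -0.0701 to 0.115. None of these 15 was called by edgeR, and none had an unadjusted p under 0.05, against 0.162% and 6.66% of all tested genes.

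Egf, Sgms2 and Mthfs, single genes of growth factor, sphingolipid and folate metabolism, rose. Egf, the epidermal growth factor precursor, was at 4.12, 4.53 and 6.3 CPM in FRL and from 9.8 to 17.6 CPM in the FSL line. It rose 2.56-fold (log2 fold change 1.36, SE 0.19, adjusted p = 0.0165). Of 10 tested genes of the epidermal growth factor family, Egf was the 1 called. Sgms2, which makes sphingomyelin at the plasma membrane, was at 3.35, 4.8 and 2.73 CPM in FRL and from 6.07 to 17.9 CPM in the FSL line. Sgms2 rose 2.83-fold (SE 0.24 on the log2 scale, adjusted p = 0.0357). The second sphingomyelin synthase, Sgms1 of the Golgi, overlapped between the lines, with 51.3 to 57.3 CPM in FRL and 45.9 to 66.2 CPM in the FSL line. Of 38 tested sphingolipid genes Sgms2 was the 1 called. At an unadjusted p under 0.05, 6 were higher and 1 lower, against 3.8% and 2.86% of all tested genes. Mthfs, which returns a storage form of folate to the active pool, was at 4.63, 6 and 6.47 CPM in FRL and from 9.42 to 13.9 CPM in the FSL line, a rise of 1.97-fold (adjusted p = 0.0357).

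Values of Sgms2 with marker levels in the model were as follows. With choroid plexus, meningeal and granule neuron marker means as covariates together its log2 fold change was 1.18 with an adjusted p of 0.933, and with the meningeal mean by itself it was 1.43 with an adjusted p of 0.0539. The fit with all 3 covariates lost the call of 15 of the 19 genes, so the loss was not particular to Sgms2. The 14 tested meningeal markers all had a log2 fold change above 0 and the median was 0.903. Their sum ranged from 393 to 1330 CPM in FRL and from 261 to 10200 CPM in the FSL line, with Col1a2 at 0 throughout.

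Among the remaining called genes, Ghdc, Cmc1, Trim45 and RGD1306001 rose. Ghdc, whose product carries a GH3 domain, was at 2.44, 2 and 1.53 CPM in FRL and from 6.58 to 9.75 CPM in the FSL line. It rose 3.87-fold (log2 fold change 1.95, SE 0.19, adjusted p = 0.00153). Cmc1, an assembly factor of mitochondrial cytochrome c oxidase, was at 3.22, 2.13 and 3.41 CPM in FRL and from 7.63 to 11.1 CPM in the FSL line. It rose 3.22-fold (adjusted p = 0.00787). Both genes had narrow ranges in the 9 FSL-line libraries. Trim45, of the tripartite motif family of ubiquitin ligases, was at 2.83, 2.53 and 4.43 CPM in FRL and from 7.79 to 11.9 CPM in the FSL line. Trim45 rose 2.74-fold (adjusted p = 0.0136). Of 35 other tested Trim genes 0 were called by edgeR and 4 had an unadjusted p under 0.05. The shares over all tested genes were 0.162% and 6.66%. RGD1306001, which RefSeq names Cdpf1, was at 4.37, 4.27 and 3.92 CPM in FRL and from 6.99 to 8.94 CPM in the FSL line, a rise of 1.85-fold (adjusted p = 0.0343).

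Kif15 and Anxa6 fell. Kif15, a kinesin motor of the mitotic spindle, was at 6.18, 8.27 and 6.3 CPM in FRL and from 0.812 to 2.97 CPM in the FSL line. Its log2 fold change was -1.74 (SE 0.28, adjusted p = 0.0413). Of 23 other kinesin genes tested 0 were called by edgeR and 2 had an unadjusted p under 0.05, against 0.162% and 6.66% of all tested genes. Anxa6, a calcium-dependent membrane-binding annexin, was at 203, 165 and 192 CPM in FRL and from 74.9 to 140 CPM in the FSL line. It fell by 0.79 on the log2 scale (SE 0.13, adjusted p = 0.0433). The other 7 annexins tested had log2 fold changes from -0.233 to 0.847, none was called and 1 had an unadjusted p under 0.05. Kif15 and Anxa6 had the largest adjusted p of the 19.

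The 19 genes were then set out by FSL group. The 3 groups are compared with the same FRL libraries, so these values are not independent of each other. Car3 had a log2 fold change of -5.02 in FSL vehicle, -4.81 in non-responders and -4.16 in responders. Rnase4 had -2.95, -2.59 and -2.77 in the same order, and Ghdc 1.87, 2.12 and 1.87. Cmc1 had 1.64, 1.74 and 1.68 and Exosc8 -0.71, -0.77 and -0.72. In Ghdc, Cmc1 and Exosc8 the treated and untreated FSL groups thus lay at a similar distance from FRL. Gstm4 had -0.48, -0.56 and -0.75. Wider spreads were seen in Car3, in Ephx2, with -1.79, -2.76 and -2.39, and in Sgms2, with 1.88, 1.61 and 1.02. Fcrl2 also spread wider, with -3.14, -2.82 and -3.57. All 19 genes had the same sign in the 3 groups, which their lack of overlap between the lines fixed in advance. By itself, the contrast of FSL vehicle with FRL called 8 genes (0.0681% of those tested, 0.0511% higher and 0.017% lower). Non-responders gave 5 (0.0426%, with 0.017% higher and 0.0255% lower) and responders 10 (0.0851%, with 5 genes in each direction).

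**Figure D2:**
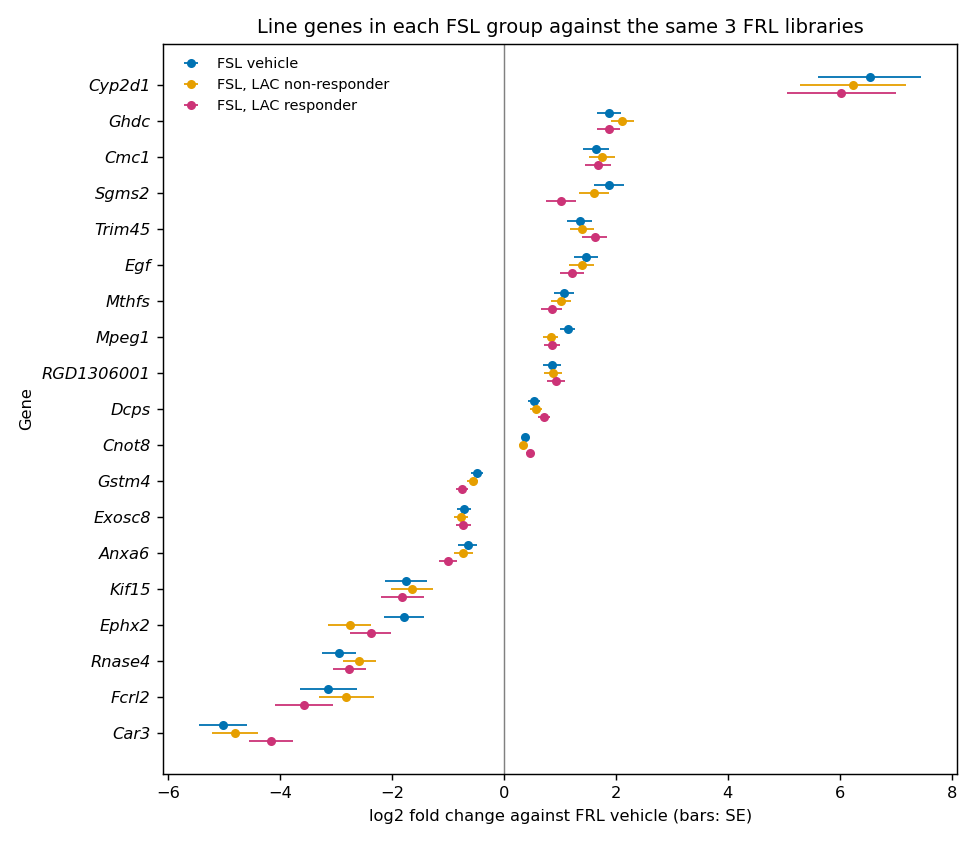
Log2 fold change against FRL vehicle of each of the 19 called genes in the FSL vehicle, the LAC non-responder and the LAC responder group, with bars of 1 SE from the edgeR fit. The 3 symbols of a gene lie on the same side of 0 in all 19 genes, which their lack of overlap between the lines fixed in advance. Values run from about -5 for Car3 upwards, and the value of Cyp2d1 is a fitted one against libraries at 0.

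A separate question was whether the 3 FSL groups differ from each other. Its contrast leaves out FRL, but the fit used all 12 libraries. A test for any difference among the 3 FSL groups called 0 of 11750 genes with edgeR (smallest adjusted p = 0.6), with 934 genes, 7.95%, at an unadjusted p under 0.05. limma-voom called 0 and DESeq2 51. Leaving out FSL vehicle 1 gave 40 calls with edgeR. None of these 51 or 40 genes was among the 19 line genes, which is the likely outcome for sets this small among 11750 genes. Within the FSL line the 19 had unadjusted p from 0.0186 (Sgms2) to 0.913 (Exosc8), with a median of 0.382, and 1 of the 19 was under 0.05. Sgms2 averaged 13.5 CPM in FSL vehicle, 11.1 CPM in non-responders and 7.41 CPM in responders, a difference that did not pass the adjusted threshold.

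Genes of the neurotransmitter systems most studied in this model showed no call. With 0.162% of all tested genes called, 0 calls is the likely outcome for any list of this size, here and in the lists below. At an unadjusted p under 0.05 the share of all tested genes was 6.66%. Of 21 acetylcholine genes tested, 0 were called by edgeR, DESeq2 or limma-voom, and 1 had an unadjusted p under 0.05. This was the muscarinic receptor Chrm4, at 34.2 ± 8.30 CPM (SD, n = 3) in FRL and 24.2 CPM as the mean over the FSL groups, with a log2 fold change of -0.50 (SE 0.14, adjusted p = 0.491 by edgeR). Chrm1, another muscarinic receptor, had a log2 fold change of -0.13 (SE 0.08). The list as a whole had a median of -0.00843, close to that of all tested genes.

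Monoamine genes numbered 28 tested, with 0 called by any of these tools and 0 with an unadjusted p under 0.05, and a median of -0.131. Their members of smallest p were Tph2 and Th, the rate-limiting enzymes of serotonin and catecholamine synthesis, at 1.44 ± 0.55 and 4.23 ± 1.71 CPM (SD, n = 3) in FRL and 1.02 and 2.52 CPM over the FSL groups. Stress hormone genes numbered 15, also with 0 called by each tool. The corticotropin-releasing hormone receptor Crhr2, with a log2 fold change of 1.13 (SE 0.51), was the 1 gene at an unadjusted p under 0.05. No gene of these systems passed the test.

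Glutamate and GABA genes showed no call either, with list medians of -0.0698 and -0.0661. Of 39 glutamate genes 0 were called by each of the 3 tools, and 2 had an unadjusted p under 0.05, a share no higher than the 6.66% of all tested genes: the NMDA receptor subunit Grin1, with a log2 fold change of -0.16 (SE 0.07), and the glial glutamate transporter Slc1a3, with -0.18 (SE 0.08). Of 24 GABA genes 0 were called by each tool, and 1 had an unadjusted p under 0.05. That gene, Slc32a1, the vesicular GABA transporter, was at 43.7 ± 2.81 CPM (SD, n = 3) in FRL and 34.3 CPM over the FSL groups, a log2 fold change of -0.35 (SE 0.105, adjusted p = 0.557 by edgeR). Slc6a13, a GABA transporter that is also a meningeal marker, had a log2 fold change of 2.12 (SE 1.14), with overlap. Of 13 interneuron markers 0 were called and 3 had an unadjusted p under 0.05, all lower, with a list median of -0.259. Of all tested genes 2.86% were lower at that unadjusted p. The summed level of those markers was 1120 to 1530 CPM in FRL and 884 to 1300 CPM in the FSL line, with Npy listed at 0 in every library.

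Genes of carnitine handling and fatty acid oxidation, the pathway LAC feeds into, had 36 tested members and 0 calls by each tool. At an unadjusted p under 0.05 there were 4 higher and 2 lower, against 3.8% and 2.86% of all tested genes. The peroxisomal oxidase Acox3 had a log2 fold change of -0.31 (SE 0.09) and the mitochondrial dehydrogenase Hadh one of 0.39 (SE 0.13). Of 30 neuropeptide and neurotrophin genes 0 were called by each tool. Cholecystokinin (Cck), with a log2 fold change of -0.38 (SE 0.17), was the 1 at an unadjusted p under 0.05.

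Antigen presentation and complement genes leaned higher in the mean over the FSL groups, without a call. Over all tested genes, 5864 of 11750 had a log2 fold change above 0 and 3.8% were higher at an unadjusted p under 0.05. Of 36 antigen presentation genes 33 had a log2 fold change above 0, with a median of 0.379, and 6 had an unadjusted p under 0.05, all higher. The peptide-loading regulator Tapbpl had a log2 fold change of 0.78 (SE 0.22) and the lysosomal protease Ctss one of 0.27 (SE 0.09). Of 24 complement genes 20 were above 0, with a median of 0.309, and 3 had an unadjusted p under 0.05, all higher. Clusterin (Clu), a secreted chaperone that restrains complement, had a log2 fold change of 0.30 (SE 0.09) and the receptor C5ar2 one of 1.32 (SE 0.45). DESeq2 and limma-voom called 0 genes of both lists. The lean was not alike in every FSL group. In FSL vehicle, non-responders and responders, B2m averaged 383, 318 and 253 CPM, against 291 CPM in FRL. C4a averaged 107 (SD 106), 59.5 and 21.2 CPM, against 28.4 CPM. Responders were thus below FRL in both genes. Tapbpl averaged 16.9, 13.7 and 9.71 CPM, against 7.58 CPM, and Ctss 173, 186 and 173 CPM, against 147 CPM. Members on either side were not counted by group. The microglial sum above, which leaves out Fcrl2, moved the same way. So did the endothelial sum, of 449 to 554 CPM in FRL and 510 to 1650 CPM in the FSL line. The part of both was not tested.

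**Figure D3:**
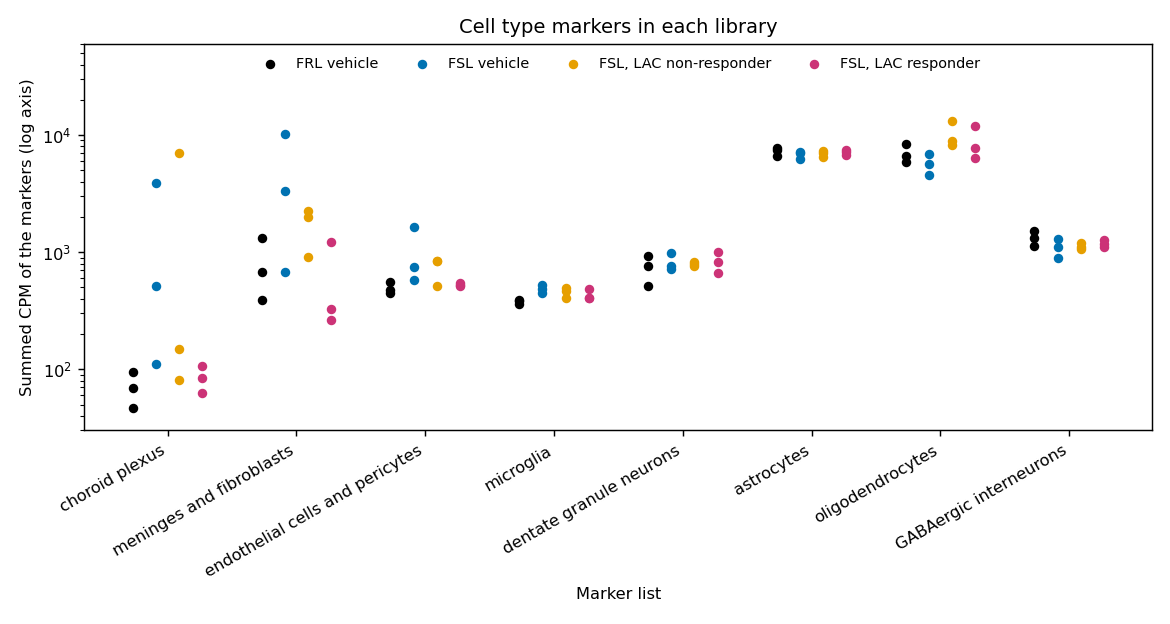
Summed level of cell type marker lists in each library, in CPM on a log axis, by group. Microglial sums, which leave out Fcrl2, are 363 to 390 in FRL and 403 to 521 in the FSL line. Choroid plexus sums reach 6980 in non-responder 1, and the lists other than microglia overlap between the lines.

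Values of the tested genes next to the called genes are given here. Genes under the expression filter were left out of this order. Among them are Ang beside Rnase4 and Cyp2d3 near Cyp2d1, whose counts differed in the same direction as those of the called gene. The order of genes was taken from RefSeq on GRCr8, in which all 19 called and 11555 of the 11750 tested genes were found. Within 2 tested places to either side of the 19 lay 76 genes, of which 0 were called by edgeR, 15 had an unadjusted p under 0.05 (19.7%, against 6.66% of all tested genes) and 5 did not overlap between lines (6.58%, against 1.94%). No called gene stood next to another. Beside Car3 the genes Car2 and Car13 had log2 fold changes of -0.01 (SE 0.20) and -0.29 (SE 0.63). Beside Rnase4, the tested genes Pnp and Ndrg2 had -0.18 and 0.005. None of the tested genes flanking Car3 and Rnase4 was called.

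The tested genes to either side of Cyp2d1 were Cyp2d4 and Tcf20, with a log2 fold change of -0.05 each. The untested Cyp2d3, found in the FSL line and not in FRL, is not in this order. Ghdc lay between Kcnh4 (0.33) and Stat5b (0.02). Ephx2 lay between Clu (0.30) and Chrna2 (0.28). The largest value within 2 places of these 6 genes was 0.82, in Cd1d1 near Fcrl2. Of their 24 neighbours 0 were called by edgeR, 5 had an unadjusted p under 0.05, and the smallest adjusted p was 0.4906. The 19 genes were spread over 6 of 21 chromosomes, with 7 of them (36.8%) on the chromosome of Car3. That chromosome holds 6.84% of the matched tested genes and 12.6% of the 223 matched genes that did not overlap between lines. Of its 790 tested genes 3.54% did not overlap. On chromosome 8, with 4 called genes, 3.62% of 663 tested genes did not.

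**Figure D4:**
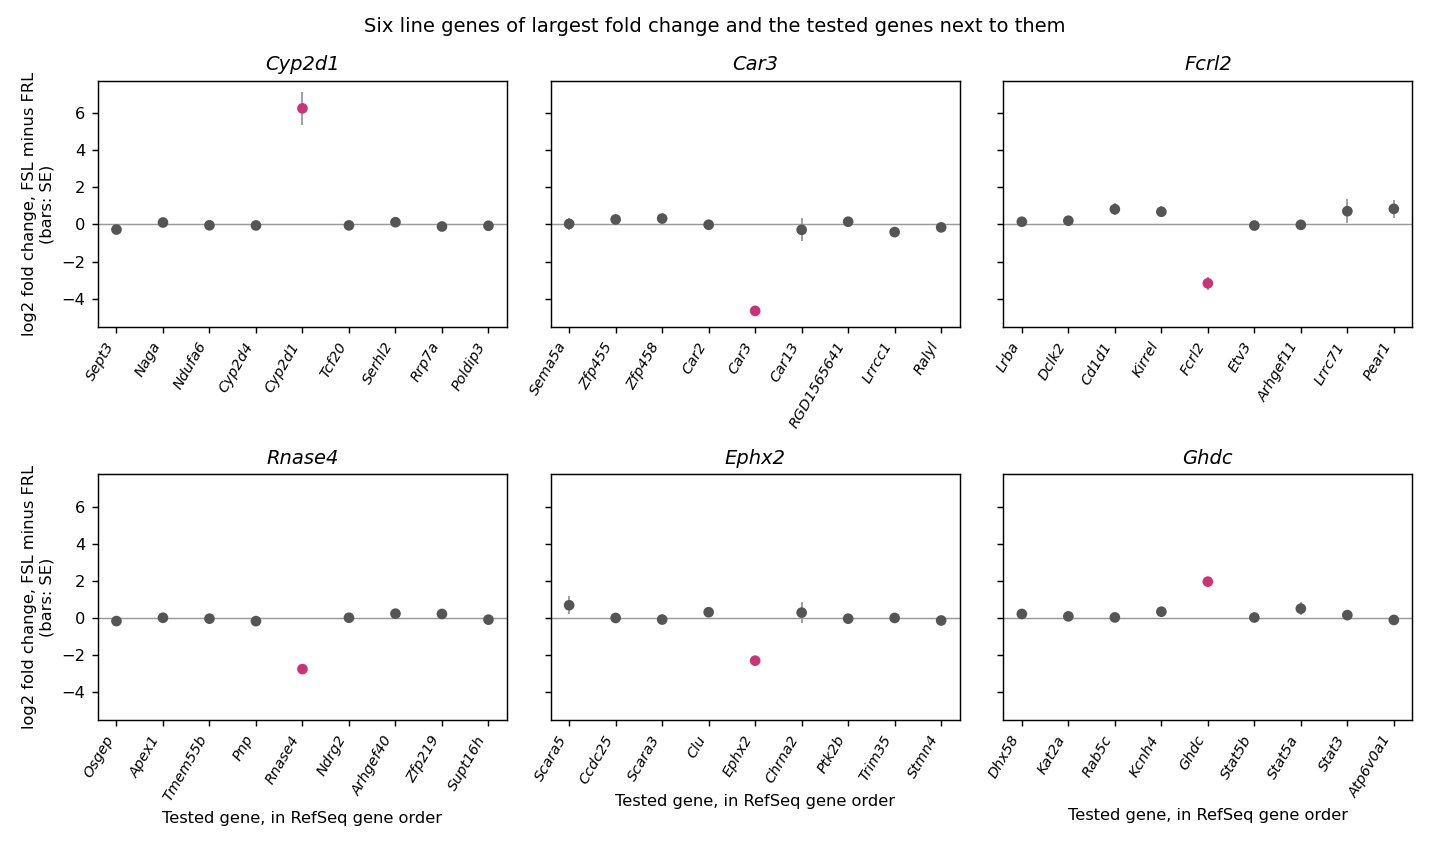
Log2 fold change, FSL line minus FRL, of the 6 called genes with the largest absolute value and of the tested genes up to 4 places to either side in RefSeq order, with bars of 1 SE and 1 panel per called gene. The called gene at the centre of each panel, in red, departs from 0, while the 24 genes within 2 places lie between -0.29 and 0.82, and the value of Cyp2d1 is a fitted one against libraries at 0.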

How the data were processed

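Per the labels' protocols, about 130 mg of ventral dentate gyrus gave total RNA for stranded libraries depleted of ribosomal RNA, sequenced from 1 end over 100 bp. The deposited files hold whole-number counts per gene symbol, made by the authors and not normalized. Per the submitters' processing notes, the tools were TopHat2 2.0.9, HTSeq 0.6.1, Trimmomatic 0.33, FastQC 0.11.3 and edgeR 3.12.0, and the build was rn5. The annotation used and the strand option are not stated in the sources used, and reads of a gene and an overlapping or antisense one cannot be separated. Reads outside genes (47.7% to 52.7% of the reads in the files), ambiguous reads (0.0756% to 0.106%) and reads aligned to several places (24.3% to 28.4%) entered neither library sizes nor tests. Leaving out the last can lower genes with close copies, and Cyp2d1, Gstm4, Fcrl2 and Rnase4, which belong to gene families, are uncertain for that reason. How many of their reads this concerns was not measured.

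The test was edgeR 4.0.16 (R 4.3.3): scaling by TMM (factors 0.975 to 1.04), its default filter on expression by group, and 1 robust quasi-likelihood model of the 4 group means over the 12 libraries, two-sided, Benjamini-Hochberg adjusted over 11750 genes at 0.05. The contrast was the equal-weight mean of the 3 FSL groups minus FRL. The common biological coefficient of variation was 0.178. CPM use TMM-scaled library sizes, log2 CPM add a prior count of 2, and the SE is the log2 fold change divided by the square root of F. DESeq2 1.42.0 and limma-voom (limma 3.58.1) were alternatives. The fit was tested on simulated counts. Libraries of a group are labelled biological replicates, without animal numbers, so p-values measure the spread between these libraries.

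Members and gene lists were chosen with earlier results of these data known. Named genes were called genes without overlap and with at least 1 CPM in the higher line (up to 15 in each direction), the 10 of smallest adjusted p, called list members, 2 members of smallest p of lists without a call, and neighbours up to 2 places from the 6 largest changes. Family members and other genes given as examples were chosen after their values were seen. Replicate numbers did not pair the lines: same-numbered libraries of FRL and an FSL group correlated at -0.116 to 0.267 after removing group means. Among the FSL groups, vehicle and non-responders correlated in all 3 numbers (0.212 to 0.581), and no other pair of FSL groups did.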

Additional observations from a re-analysis of the deposited data

Results flagged for a closer look

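Among 19 genes tested for a library far from the other 8 of the FSL line, 2 had one, and chance gives about 1 in 20. Trim45 was at 11.9 CPM in responder 1, the library with the lowest granule neuron markers in the FSL line. Egf was at 17.6 CPM in FSL vehicle 3. Both values lie farther from FRL than the rest of the line.

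A signal was also seen in a gene outside the test. Cyp2d3 had a total count of 50 over the 9 FSL-line libraries and 0 in the FRL libraries, but was too low for the expression filter.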

How the results depend on the processing

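All 19 genes kept their sign in all 32 alternatives. For single FSL groups and for fits leaving out libraries, their lack of overlap between the lines fixed this in advance. Of 608 values of called genes, 357 kept their call, 251 lost it and 0 reversed, and Car3 kept its call in all 32 (log2 fold change -5.24 to -4.16). Other scaling factors and filters gave the same 19 calls. A model of line only also gave 19, of which 17 were among them (not Sgms2 and Anxa6), and limma-voom gave 15 (not RGD1306001, Sgms2, Mthfs and Anxa6). The number called, with higher and lower genes, was 47 (28 and 19) with DESeq2, 9 (4 and 5) with a replicate block, 8 (6 and 2) for FSL vehicle only, 5 (2 and 3) for non-responders only and 10 (5 and 5) for responders only. It was 3 (1 and 2) with a choroid plexus covariate, 4 (1 and 3) with a microglial covariate added after seeing the data, and 5 (0 and 5) with choroid plexus, meningeal and granule neuron covariates. Folds of some lost genes stayed about as large: Cmc1 had 1.69 and 1.71 with the choroid plexus and the microglial covariate, and Cnot8 0.407 and 0.397, against 1.69 and 0.394 without. Folds of others moved: in the same order Kif15 had -1.4 and -2.05, against -1.74 without, and Anxa6 -0.896 and -0.58, against -0.79. The number called was 3 (0 and 3) without the 2 libraries low in granule neuron markers, 7 (3 and 4) at an adjusted p under 0.01 and 5 (1 and 4) against a fold of 1.5. Leaving out 1 library at a time gave 3 to 25 calls, with 1 to 17 higher and 2 to 8 lower. The fewest came without FRL vehicle 1 (3), FRL vehicle 2 (4), FRL vehicle 3 (9) and non-responder 3 (9), then non-responder 1 (10), non-responder 2 and responder 2 (11 each) and responder 3 (12). The number of genes differing among the FSL groups was 51 with DESeq2 and 0 to 40 leaving out 1 library. The cause of these changes was not tested. Fits that left libraries out also had fewer samples. All 9 calls under the block were among the 19, and Trim45, Exosc8, Gstm4, Cnot8, Dcps, Cyp2d1, RGD1306001, Sgms2, Mthfs and Anxa6 were not called there. The block gave 0 calls among the FSL groups. The replicate numbers did not pair the lines, and 5 of 12 libraries correlated best with their own number. The 3 FRL libraries limit the precision of every line difference.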

Other observations

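DESeq2 called 28 genes beyond the 19, which edgeR left above the adjusted threshold and which were chosen here after their values were seen. Higher in the FSL line were Prelp, a small proteoglycan of connective tissue, at 10.8 CPM in FRL and 32.2 CPM over the FSL groups (DESeq2 adjusted p = 2.53e-05), Tmem144, at 7.11 and 15.2 CPM (adjusted p = 1.34e-04), and Tgm2, the tissue transglutaminase, at 10.96 and 28.53 CPM (adjusted p = 9.32e-04). Prelp averaged 50.0 CPM in FSL vehicle and 16.5 CPM in responders, and its unadjusted p among FSL groups was 5.90e-04. Meningeal marker sums in FSL vehicle 1, 2 and 3 were 679, 3310 and 10200 CPM, against 393 to 1330 CPM in FRL. The part of meningeal tissue in the Prelp difference was not tested. Lower in the FSL line were Phgdh, the entry enzyme of serine synthesis, at 89.1 and 68.0 CPM (adjusted p = 0.0167), and Srebf2, the regulator of cholesterol synthesis, at 403.6 and 323.9 CPM (adjusted p = 0.00513). Trmu, a mitochondrial tRNA-modifying enzyme 3 places from RGD1306001 in gene order, had a log2 fold change of 0.56 (SE 0.10, adjusted p = 0.0763 by edgeR and 0.0167 by DESeq2).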
